A study of Mus musculus with 4 samples.

Results

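The genes described here encode the cyclin-dependent kinase CDK2, its cyclins and inhibitors, and the D cyclins with their kinases. They are 10 of the 49997 genes counted in each library: Cdk2, Ccne1, Ccne2, Ccna2, Cdkn1a, Cdkn1b, Cdk4, Cdk6, Ccnd1 and Ccnd2. Cdk2 was taken because its product is the target of K03861, a compound in the medium of one group, and the others for their known roles around it. RNA was sequenced in 4 libraries of wild-type iMOP cells (immortalized multipotent otic progenitors), a mouse line from the inner ear. The 2 libraries labelled neuron came from cells in Neurobasal medium with N21 supplement, to which K03861 (1 µM) and L-glutamine (2 mM) were added. The 2 libraries labelled proliferating came from cells in DMEM/F12 with the same supplement, carbenicillin at 25 µg/ml and the growth factor bFGF at 20 ng/ml. Medium, bFGF, carbenicillin, K03861 and the addition of L-glutamine all differed between the groups, so the part of each cannot be told apart. Both groups come from the same line, and the labels do not say that libraries of a group came from separate cultures. The p-values therefore measure only the spread between these libraries, which may be technical.

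In cells that enter the division cycle, growth factor signals raise the D cyclins, which bind CDK4 or CDK6 and begin to phosphorylate the retinoblastoma protein. E2F transcription factors are then released and switch on the E cyclins and cyclin A2, which activate CDK2 for the start of DNA replication. The inhibitors p21 (Cdkn1a) and p27 (Cdkn1b) bind cyclin-CDK complexes, and p27 is known for holding cells of the developing inner ear out of the cycle. K03861 acts on the kinase protein, and messenger RNA levels do not measure kinase activity.

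The Cdk2 promoter is shown because it was the only one, among those given for 6 of the 10 genes, that held the letters of an E2F site. The RefSeq window of 300 bases around the Cdk2 start (build GRCm38.p6, minus strand, chr10:128705002-128705301) is printed 5′ to 3′ along the gene, with the matches in capitals.

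Cdk2 promoter: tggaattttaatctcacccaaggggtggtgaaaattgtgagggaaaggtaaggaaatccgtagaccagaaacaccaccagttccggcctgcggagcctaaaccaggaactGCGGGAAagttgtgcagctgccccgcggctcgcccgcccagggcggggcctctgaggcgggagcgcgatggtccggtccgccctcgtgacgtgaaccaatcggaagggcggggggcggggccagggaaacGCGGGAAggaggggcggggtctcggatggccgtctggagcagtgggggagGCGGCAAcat

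The motifs searched on both strands were TTCCCGC, then TTCGCGC, then TTGCCGC, then TTGGCGC. Cdk2 held 3 matches, all on the strand opposite to the gene, starting 140 and 10 bases before the annotated start and 41 bases after it. Of 32817 windows of that length, 9.57% held at least 1 match. TTTGAA, the letters of the cell cycle homology region, was in 17.9% of them and in none of the 7 windows of these genes. A match describes letters only.

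The files hold few counts for these genes. Outside 7 ribosomal RNA and rRNA-like genes, which took 88.2% to 98.1% of each library, 3241915 and 617872 counts remained in neuron 1 and neuron 2, against 292302 and 614465 in proliferating 1 and proliferating 2. Levels below are scaled CPM: CPM taken over those remaining counts, then TMM-scaled, which sets the libraries to a common size on most genes. A count of 0 allows, at 3 counts, up to 0.765 and 5.96 scaled CPM in neuron 1 and 2, and up to 9.36 and 5.27 in proliferating 1 and 2. Libraries resembled each other by number: across genes, which are not independent, the Pearson correlation of log2 CPM was 0.78 within number 1 and 0.82 within number 2. It was 0.50 between the neuron libraries and 0.40 between the proliferating ones. Mitochondrial messenger RNAs were 2.35% to 2.53% of the remaining counts in libraries numbered 1, and 10.6% to 14.6% in those numbered 2. Each result is therefore also given within a number, called set 1 and set 2. These sets are not named as batches in the labels.

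The group labels were at odds with the division markers, and 7 of 10 tested neuron markers were lower in neuron within both sets. All 10 division markers passed the count filter, and in the edgeR fit with the set term described below 6 rose and 0 fell in libraries labelled neuron. The 6 were Mki67, Top2a, Bub1, Cenpf, Kif11 and Kif20b. With a correction for GC content 2 of the 6, Mki67 and Cenpf, stayed past the threshold. The summed CPM of the 10 division markers, without TMM scaling, was 2376 and 4108 in the neuron libraries. In the proliferating libraries it was 294 and 592. Of 19 neuron markers 10 were tested, and 1, the neuronal gene Stmn2, fell in the same fit. Of those 10, 7 were lower in neuron within both sets, against 27% of all tested genes. In both sets 0 were higher, against 27.4% of all tested genes. Map2 and Dcx, the highest of them, had log2 fold changes of -0.82 and 0.13 and were not called. Of those not tested, Nefh and Rbfox3 were chosen after their values were seen. Nefh had 120 and 8 counts in the neuron libraries, against 0 and 2 in the proliferating libraries. In CPM without TMM scaling these were 37.0 and 12.9, against 0 and 3.25. Rbfox3 had 176 and 3 counts in the neuron libraries, against 4 and 2 in the proliferating libraries. In CPM without TMM scaling these were 54.3 and 4.86, against 13.7 and 3.25. The summed CPM of the 19 neuron markers, without TMM scaling, was 1871 and 1279 in the neuron libraries. In the proliferating libraries it was 2754 and 2758. Of 6 tested glial markers 2, Olig1 and Olig2, fell, and Olig1 missed the threshold with the GC correction (adjusted p = 0.169 in edgeR), with DESeq2 size factors (0.0584) and without the count filter (0.105). Fabp7, the most abundant of the tested glial markers, had 321 and 177 counts in the neuron libraries, against 95 and 621 in the proliferating libraries. Its log2 fold change with the set term was -1.74 (adjusted p = 0.154 in edgeR), with log2 ratios of -1.84 in set 1 and -1.63 in set 2. Aqp4, chosen after its values were seen, had 277 and 162 counts in the neuron libraries, against 16 and 3 in the proliferating libraries. The log2 fold change of Aqp4 was 2.80 (adjusted p = 0.0520 in edgeR), with log2 ratios of 0.49 in set 1 and 5.58 in set 2. Further, the summed CPM of the 11 glial markers listed, without TMM scaling, was 433 and 634 in the neuron libraries. In the proliferating libraries it was 1214 and 1435. Isl1 among the neuron markers and Sox10 among the glial ones were at 0 in all 4 libraries, as were C1qa, C1qb and Tyrobp of immune cells, Pou4f3 and Otof of hair cells and Col1a2 of mesenchyme. Of 7 hair cell markers 2 were tested, Myo6 and Atoh1, and 0 were called. Their log2 fold changes with the set term were -0.81 and -0.0018. The otic progenitor markers Sox2, Nes and Vim were counted in all 4 libraries, while Pax2 and Pax8 were at 1 count or none in each. Of 11 such markers 6 were tested, and 0 were called in either fit. Within both sets 3 of the 6 were lower in neuron, against 27% of all tested genes, and 0 were higher, against 27.4%. Their median log2 fold change with the set term was -0.91. The summed CPM of the 11, without TMM scaling, was 2559 and 1627 in the neuron libraries. For the proliferating libraries it was 3383 and 7623. The part of these shifts in the results below was not tested. In such bulk samples, fewer cells of a type and less RNA per cell cannot be told apart.

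None of the 10 genes passed a test of the difference between the groups, with 2 libraries in each. Cyclin A2 was the one tested gene with both neuron libraries above both proliferating libraries. Ccnd1 and Ccnd2 were higher in the neuron library of set 1 and lower in that of set 2. Of the 10 genes, 8 passed the count filter of edgeR's quasi-likelihood test, and Cdkn1a and Cdk6 did not. With group alone in the model, 0 of those 8 were called, against 0 of 9009 genes tested in all (0%). At an unadjusted p under 0.05 there were 97 genes in that edgeR fit, 190 in DESeq2, which also called 0, and 99 and 389 in limma on log2(RPKM + 0.1) and log2(RPKM + 1), which called 0 as well. With a term for the set, 0 of the 8 were called, against 0.944% of the 9009 genes, 0.622% higher and 0.322% lower.

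Cdk2 itself was at low levels. Its counts were 132 and 5 in neuron 1 and 2, against 10 and 2 in proliferating 1 and 2. In scaled CPM these were 33.7 and 9.94 in the neuron libraries and 31.2 and 3.52 in the proliferating libraries. Both libraries numbered 1 were high and both numbered 2 low, and the groups overlapped. The group means were 21.8 ± 16.8 scaled CPM in neuron and 17.4 ± 19.6 in proliferating libraries (SD, n = 2 each). On the log2 scale the fold change of neuron over proliferating libraries was 0.42 (SE 1.47, adjusted p = 1.00 in edgeR's quasi-likelihood test) with group alone and 0.54 (SE 0.88, adjusted p = 0.941 in edgeR) with the set term. Within set 1 the ratio of neuron to proliferating was 1.08 (95% exact binomial interval 0.569 to 2.30). In set 2 it was 2.83 (0.463 to 29.7), resting on 5 against 2 counts. These intervals cover counting error alone and compare 2 libraries, not the conditions. Cdk2 lies on chromosome 10 from 128697939 to 128705031 (GRCm38, GENCODE M21) and overlaps Pmel on the other strand, which had 7 and 0 counts in the neuron libraries, against 1 and 0 in the proliferating libraries.

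**Figure D1:**
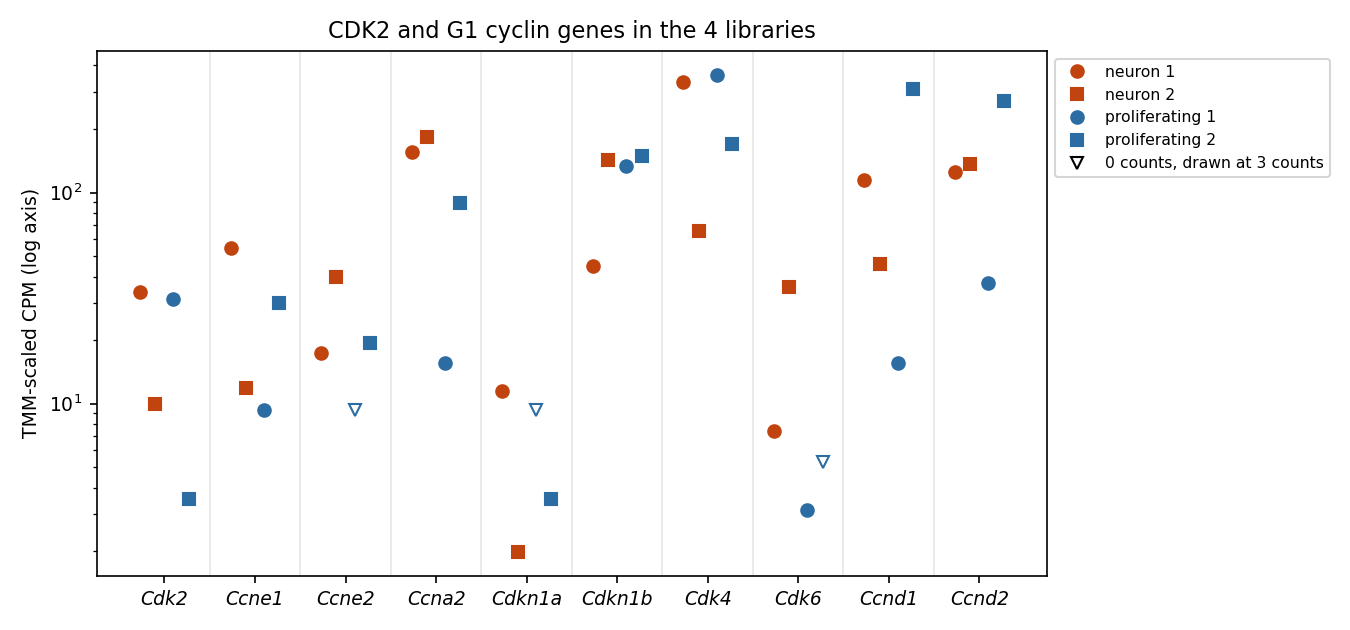
TMM-scaled CPM (log axis) of the 10 genes in each library, with neuron libraries in orange and proliferating libraries in blue, circles for number 1 and squares for number 2. Open triangles mark a count of 0, drawn at the level of 3 counts. Ccna2 and Cdk6 have both neuron libraries above both proliferating libraries, and the other genes overlap.

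Among the other genes with at least 10 counts in every library, 5 had the pattern nearest to that of Cdk2 over the 4 libraries. The pattern of Cdk2 rests on 5 and 2 counts in neuron 2 and proliferating 2, under the minimum set for the candidates, so the order is a description that counting error in Cdk2 could change. Likeness was the Euclidean distance of log2 CPM centred on each gene's mean, over 4177 candidates. The nearest was Igsf9b at 0.193, then Pes1 at 0.447, H1f4 at 0.449, Fbf1 at 0.528 and Rbm10 at 0.532. Igsf9b had 828 and 39 counts in the neuron libraries, against 70 and 16 in the proliferating libraries.

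The E cyclins, which bind CDK2 before S phase, differed in their values. Ccne1 (chromosome 7, 38097984 to 38107534) had 214 and 6 counts in neuron 1 and 2, against 3 and 17 in proliferating 1 and 2. The scaled CPM were 54.6 and 11.9 in the neuron libraries, against 9.36 and 29.9 in the proliferating libraries. Neuron 1 was the highest and proliferating 1 the lowest, and the groups overlapped. Its log2 fold change was 0.76 (SE 1.25, adjusted p = 1.00 in edgeR) with group alone and 0.53 (SE 0.84, adjusted p = 0.939 in edgeR) with the set term. Within set 1 neuron was 5.83-fold higher (interval 1.97 to 28.5). In set 2 the ratio was 0.399 (0.129 to 1.06), which includes no change.

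Ccne2 (chromosome 4, 11191351 to 11204779) had 68 and 20 counts in the neuron libraries, against 0 and 11 in the proliferating libraries. In scaled CPM the neuron libraries had 17.3 and 39.7, and the proliferating libraries 0 and 19.3. Neuron 1 lay just below proliferating 2, so the groups overlapped. Its log2 fold change was 1.44 (SE 1.57, adjusted p = 1.00 in edgeR) with group alone and 1.80 (SE 0.93, adjusted p = 0.531 in edgeR) with the set term. The fold with the set term rests on a count of 0 and was 0.67 (SE 0.94) after a correction for GC content. Ccne2 has the lowest GC content of the 10 genes, 36.3%, and in the fifth of tested genes with the lowest GC the median log2 ratio was 0.43 in set 1 and 0.90 in set 2. In set 1 neuron was at least 1.85-fold higher against 3 counts in place of the 0, and the 95% exact lower limit, which also takes the counting error of neuron 1, was 1.47. Within set 2 the ratio was 2.06 (0.939 to 4.75). Its locus overlaps Ints8 on the other strand, which had 248 and 58 counts in the neuron libraries, against 11 and 34 in the proliferating libraries, and the strand setting of the counting is not given in the sources used here.

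Cyclin A2, which activates CDK2 in S phase and CDK1 later, had the clearest separation. Ccna2 (chromosome 3, 36564865 to 36572150) had 609 and 92 counts in neuron 1 and 2, against 5 and 51 in proliferating 1 and 2. In scaled CPM it had 155 and 183 in the neuron libraries, against 15.6 and 89.7 in the proliferating libraries. Both neuron libraries were above both proliferating libraries, with means of 169 ± 19.4 in neuron and 52.6 ± 52.4 in proliferating (SD, n = 2 each). Such separation upward was found in 1 of the 8 tested genes, against 9.41% of all tested genes, and separation downward in 0 of the 8, against 8.5%. The log2 fold change was 1.66 (SE 1.07, adjusted p = 1.00 in edgeR) with group alone. With the set term it was 1.96 (SE 0.65, unadjusted p = 0.00304 and adjusted p = 0.138 in edgeR's quasi-likelihood test), short of the threshold of 0.05. Within set 1 neuron was 9.96-fold higher (interval 4.25 to 30.8), and within set 2 it was 2.04-fold higher (1.43 to 2.93). Ccna2 overlaps Exosc9 on the other strand, which had 71 and 23 counts in the neuron libraries, against 1 and 21 in the proliferating libraries.

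**Figure D2:**
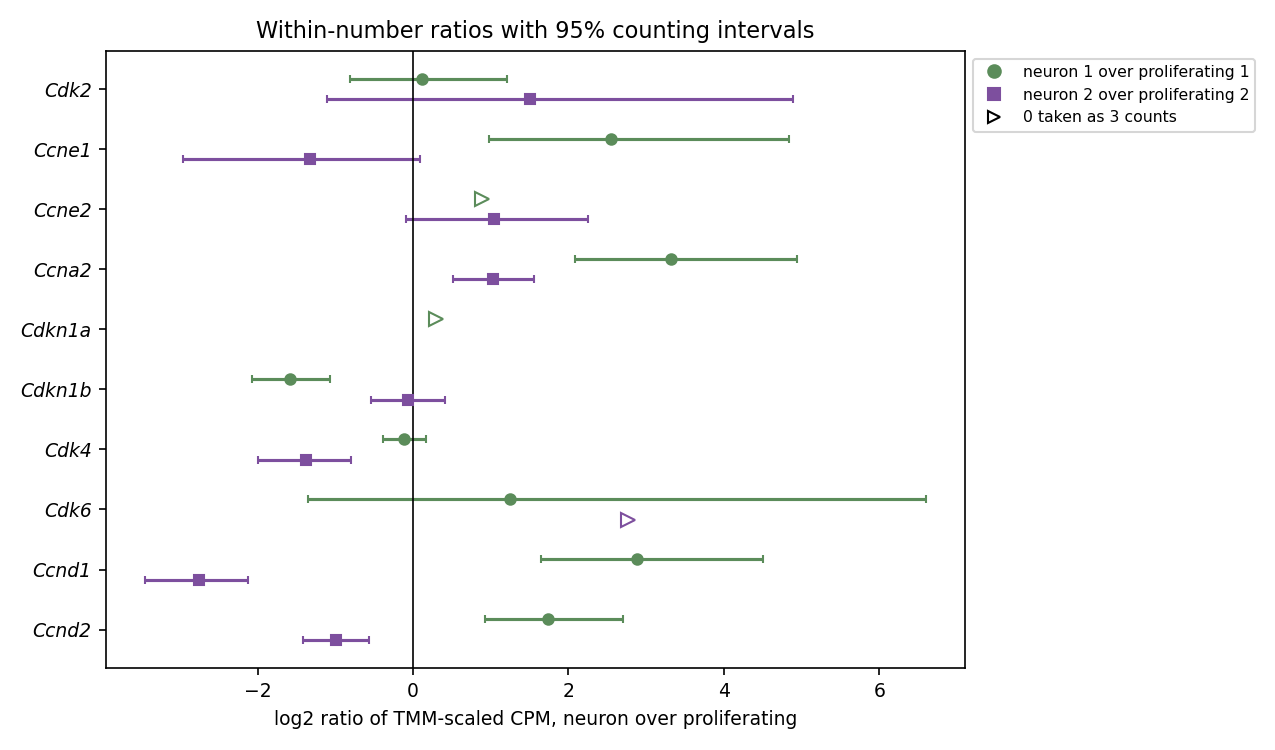
Log2 ratio of scaled CPM, neuron over proliferating, within the libraries numbered 1 (circles) and within those numbered 2 (squares), with 95% exact binomial intervals for counting error. Open triangles are ratios with the 0 counts of the proliferating library taken as 3, without counting error. Intervals of Ccnd1 and Ccnd2 lie on opposite sides of 0 in the sets, and both intervals of Ccna2 lie above 0.

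Of the inhibitors, Cdkn1b was well counted and Cdkn1a was not. Cdkn1b (chromosome 6, 134920401 to 134925513) had 175 and 72 counts in the neuron libraries, against 43 and 85 in the proliferating libraries. In scaled CPM it had 44.6 and 143 in the neuron libraries and 134 and 149 in the proliferating libraries. Neuron 1 stood below the other 3 libraries, which lay close together. Its log2 fold change was -0.61 (SE 0.99, adjusted p = 1.00 in edgeR) with group alone and -0.82 (SE 0.60, adjusted p = 0.760 in edgeR) with the set term, and -1.29 (SE 0.57, adjusted p = 0.659 in edgeR) with the GC correction added. The ratio was 0.333 (0.237 to 0.476) in set 1 and 0.958 (0.690 to 1.33) in set 2.

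Cdkn1a (chromosome 17, 29090976 to 29100727) had 45 and 1 counts in the neuron libraries, against 0 and 2 in the proliferating libraries. That is 11.5 and 1.99 scaled CPM in neuron, against 0 and 3.52 in proliferating libraries. All libraries but neuron 1 were below 3 counts, and the groups overlapped. In set 1 the 95% exact lower limit of the ratio of neuron to proliferating was 0.957, which includes no change. No fold is given for set 2, where both libraries were below 3 counts. Without the count filter, its log2 fold change was 1.89 (SE 2.02, adjusted p = 0.999 in edgeR).

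Per length, Cdk4 was the most abundant of the 3 kinase genes in every library and Cdk6 had 0 or 1 count in the proliferating libraries. Cdk4 (chromosome 10, 127063534 to 127067920) had 1309 and 33 counts in the neuron libraries, against 116 and 97 in the proliferating libraries. In scaled CPM the neuron libraries had 334 and 65.6, and the proliferating libraries 362 and 171. Neuron 2 was the lowest of the 4, and the groups overlapped. The log2 fold change was -0.40 (SE 1.08, adjusted p = 1.00 in edgeR) with group alone and -0.72 (SE 0.60, adjusted p = 0.809 in edgeR) with the set term. Within set 1 the ratio was 0.923 (0.763 to 1.13), and within set 2 it was 0.385 (0.251 to 0.576). Cdk4 overlaps Tspan31 on the other strand, which had 229 and 14 counts in the neuron libraries, against 19 and 8 in the proliferating libraries.

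Cdk6 (chromosome 5, 3341485 to 3531008) had 29 and 18 counts in the neuron libraries, against 1 and 0 in the proliferating libraries. Both neuron libraries, at 7.40 and 35.8 scaled CPM, were above both proliferating libraries, at 3.12 and 0. It was not tested in the fits above. Without the count filter its log2 fold change was 3.99 (SE 2.07, adjusted p = 0.999 in edgeR) with group alone and 3.98 (SE 1.58, adjusted p = 0.707 in edgeR) with the set term. These folds rest on 1 count in the proliferating group. The ratio in set 1 was 2.37 with an interval of 0.393 to 96.9, and in set 2 neuron was at least 6.78-fold higher against 3 counts in place of the 0, with a 95% exact lower limit of 4.97. At the depth of proliferating 1, a level of 7.40 scaled CPM lies under the limit that a count of 0 allows.

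Of the D cyclins, Ccnd1 and Ccnd2 had ratios of opposite direction in the sets. Ccnd3, from the list of other cyclins, had 141 and 0 counts in the neuron libraries, against 15 and 0 in the proliferating libraries. With 0 counts in both libraries of set 2, it has no direction there to compare. Ccnd1 (chromosome 7, 144929931 to 144939925) had 449 and 23 counts in neuron 1 and 2, against 5 and 175 in proliferating 1 and 2. In scaled CPM it had 115 and 45.7 in the neuron libraries, against 15.6 and 308 in the proliferating libraries. The 2 proliferating libraries were the highest and the lowest of the 4, differing 19.7-fold from each other. Within set 1 neuron was 7.35-fold higher (3.12 to 22.7). Within set 2 the ratio was 0.149 (0.0918 to 0.230). The log2 fold change was -1.01 (SE 1.22, adjusted p = 1.00 in edgeR) with group alone and -0.27 (SE 0.82, adjusted p = 0.973 in edgeR) with the set term. Without proliferating 2 it was 2.40, and without proliferating 1 it was -1.90, neither past the threshold in edgeR. Ccnd1 overlaps LTO1 on the other strand, which had 41 and 0 counts in the neuron libraries, against 3 and 4 in the proliferating libraries.

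Ccnd2 (chromosome 6, 127125162 to 127152193) followed the same order of libraries at the ends. It had 490 and 69 counts in the neuron libraries, against 12 and 155 in the proliferating libraries. In scaled CPM the neuron libraries were close together at 125 and 137, with the proliferating libraries on either side at 37.4 and 273. Within set 1 neuron was 3.34-fold higher (1.89 to 6.51), and within set 2 the ratio was 0.503 (0.373 to 0.672). The log2 fold change was -0.25 (SE 1.07, adjusted p = 1.00 in edgeR) with group alone and 0.26 (SE 0.64, adjusted p = 0.966 in edgeR) with the set term. Opposite signs in the sets were found in Ccnd1, Ccnd2 and Ccne1, 3 of the 8 tested genes, against 44.6% of all tested genes. A set difference cannot be tested here, since each set has 1 library per group.

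**Figure D3:**
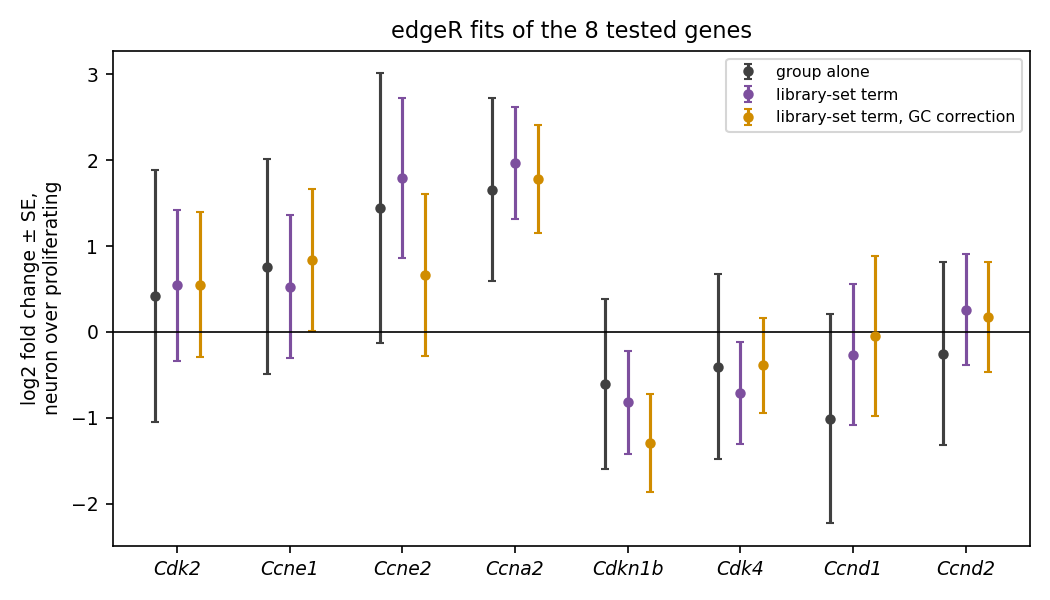
Log2 fold change, neuron over proliferating, with its SE for the 8 tested genes, from the edgeR fit with group alone, with the set term, and with the set term and a GC correction. The estimate for Ccna2 stays between 1.66 and 1.96, and that of Ccne2 is 0.67 with the GC correction.

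Levels of different genes were compared per kilobase of the counted gene length. In the neuron group the order of the means was Cdk4, Ccna2, Cdkn1b, Ccnd1, Ccnd2, Ccne1, Ccne2, Cdk2, Cdk6 and Cdkn1a. The mean level of Cdk4 was 141 ± 134 scaled CPM per kilobase and that of Cdk2 8.21 ± 6.32 (SD, n = 2). Only Cdk2 and Cdk6 were neighbours in that order whose 2 libraries did not overlap. In the proliferating group the order was Cdk4, Cdkn1b, Ccnd1, Ccnd2, Ccna2, Ccne1, Cdk2, Ccne2, Cdkn1a and Cdk6, with means of 187 ± 95.2 for Cdk4 and 6.53 ± 7.36 for Cdk2. There only Cdk4 and Cdkn1b did not overlap as neighbours. Per length, Cdk4 exceeded Cdk2 by 18.6-fold and 12.3-fold in neuron 1 and 2, and by 21.7-fold in proliferating 1. No ratio is given for proliferating 2, which had 2 counts of Cdk2. The ratio of Ccnd1 to Ccnd2 per length was 1.56 and 0.567 in the neuron libraries, against 0.709 and 1.92 in the proliferating libraries.

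**Figure D4:**
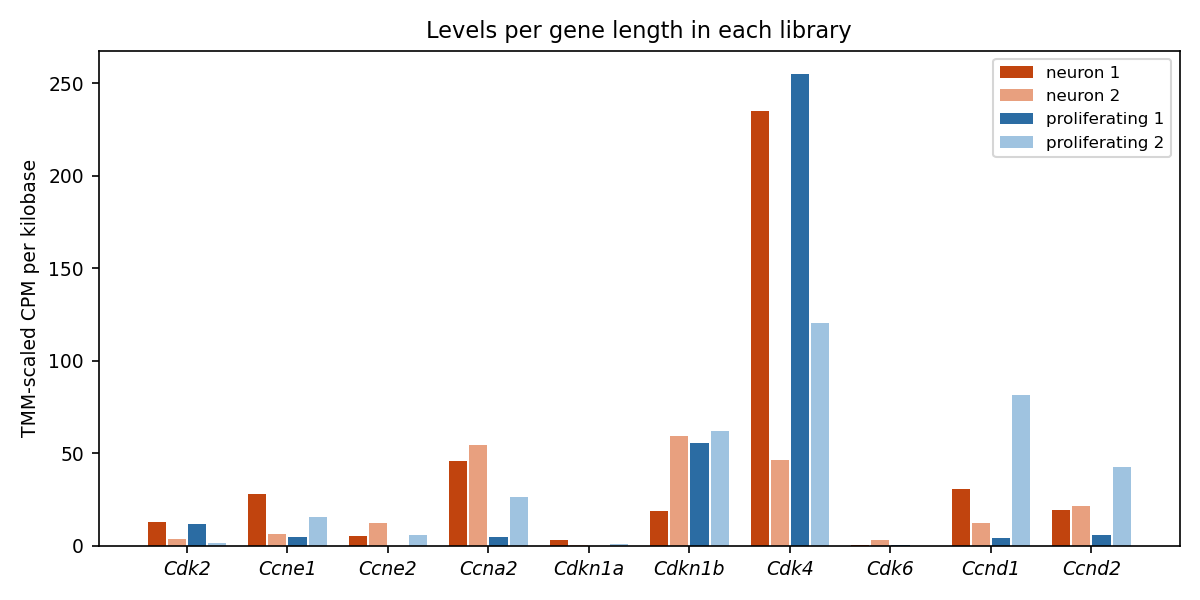
Scaled CPM per kilobase of counted gene length (linear axis from 0) for the 10 genes, with bars for neuron 1, neuron 2, proliferating 1 and proliferating 2 from left to right. Cdk4 is the highest bar in 3 of the 4 libraries, and in neuron 2 Cdkn1b at 59.5 and Ccna2 at 54.2 stand above Cdk4 at 46.2.

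The genes around CDK2 were read from lists chosen for their roles. In the 22 tested E2F targets of the G1/S transition, which act in DNA replication and nucleotide supply, 1 rose and 0 fell with the set term. That gene was Pola1, a subunit of DNA polymerase alpha, with 411 and 232 counts in the neuron libraries, against 4 and 19 in the proliferating libraries. Its log2 fold change was 3.51 (SE 0.70, adjusted p = 0.00151 in edgeR), and it missed the threshold with the GC correction (2.86, adjusted p = 0.0710 in edgeR). Of those 22 genes 20 were higher in neuron within both sets, against 27.4% of all tested genes, and 0 were lower in both, against 27% of them. Their median log2 fold change was 1.37 with group alone, against -0.03 for all tested genes. Leaving out each library in turn gave medians from 0.97 without proliferating 1 to 2.27 without proliferating 2. In those fits the median of all tested genes was 0.33 and 0.11. Mcm6, part of the replicative helicase, had a log2 fold change of 1.74 (adjusted p = 0.199 in edgeR with the set term), and Rrm1, of ribonucleotide reductase, one of 1.27 (adjusted p = 0.442 in edgeR). Within both sets Cdk2, Ccne2 and Ccna2 were higher, 3 of the 8 tested genes of the CDK2 pathway, against 27.4% of all tested genes. Cdkn1b and Cdk4 were lower in both, 2 of the 8, against 27% of all tested genes. Among these genes only Ccna2 had counting intervals that left out no change in both sets.

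Of 7 tested genes in the list of other cyclins and kinases, which includes Ccnd3, Cdk5 and Cdk5r1, 0 were called in either fit. Ccnb1, the mitotic cyclin, had 504 and 92 counts in the neuron libraries, against 8 and 35 in the proliferating libraries (log2 fold change 1.92, adjusted p = 0.134 in edgeR with the set term). Cdk1, its kinase, had a log2 fold change of 1.61 (adjusted p = 0.347 in edgeR with the set term). Of the INK4 inhibitors of CDK4 and CDK6 and the remaining CIP/KIP inhibitor Cdkn1c, 1 of 5 was tested. That gene, Cdkn2a, had 312 and 2 counts in the neuron libraries, against 15 and 15 in the proliferating libraries (log2 fold change -0.45, adjusted p = 0.950 in edgeR with the set term). With group alone the log2 fold change of Cdkn2a was 0.24, and its log2 ratios were 0.75 in set 1 and -2.35 in set 2. Cdkn1c had at most 1 count in any library.

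Among the 3 pocket proteins, the retinoblastoma family that D cyclin kinases and CDK2 phosphorylate, 0 were called. Rbl1, chosen after its values were seen, had 109 and 61 counts in the neuron libraries, against 0 and 15 in the proliferating libraries, and an adjusted p of 0.0773 in edgeR with the set term. Rb1 and Rbl2 had log2 fold changes of -0.38 and 0.25 in that fit. The 9 tested E2F and DP factors had 0 calls and a median of 0.44 with group alone, with 0.44 for E2f3 and -0.15 for Tfdp1. The 5 tested genes of the CDK-activating kinase and the CDC25 phosphatases had 0 calls, with group-alone values of -0.31 for Cdk7 and 0.20 for Cdc25a. Wee1, which puts the inhibitory phosphate on CDKs, was at 0.58 with group alone and 0.99 with the set term, and was not called. In the 13 genes of cyclin and inhibitor turnover 0 were called, with group-alone values of -0.26 for Ddb1 and 0.03 for Cul1. The 10 tested p53 pathway genes around Cdkn1a also had 0 calls, with group-alone values of 1.09 for Mdm4 and 0.43 for Zmat3. Btg2 in that list, chosen after its values were seen, had 241 and 7 counts in the neuron libraries, against 70 and 53 in the proliferating libraries (log2 fold change -2.20, adjusted p = 0.0612 in edgeR with the set term).

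The inputs to the D cyclins held 2 called genes among 12 tested. Spry2, an FGF-induced inhibitor of FGF signalling, fell by 2.89 on the log2 scale with the set term (SE 0.64, adjusted p = 0.00510 in edgeR). It had 60 and 16 counts in the neuron libraries, against 26 and 191 in the proliferating libraries. Jun, a subunit of the AP-1 factor, fell by 2.49 (SE 0.63, adjusted p = 0.0236 in edgeR), with 177 and 20 counts in the neuron libraries, against 45 and 242 in the proliferating libraries. Jun missed the threshold with the GC correction (adjusted p = 0.190 in edgeR), with DESeq2 size factors (adjusted p = 0.0676 in edgeR) and without the count filter (adjusted p = 0.105 in edgeR). The list median was -1.06 with group alone but -0.10 without proliferating 1 and -2.47 without neuron 1. Myc and Egr1, the most abundant of the list, had 0.92 and -0.73 with the set term and were not called.

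**Figure D5:**
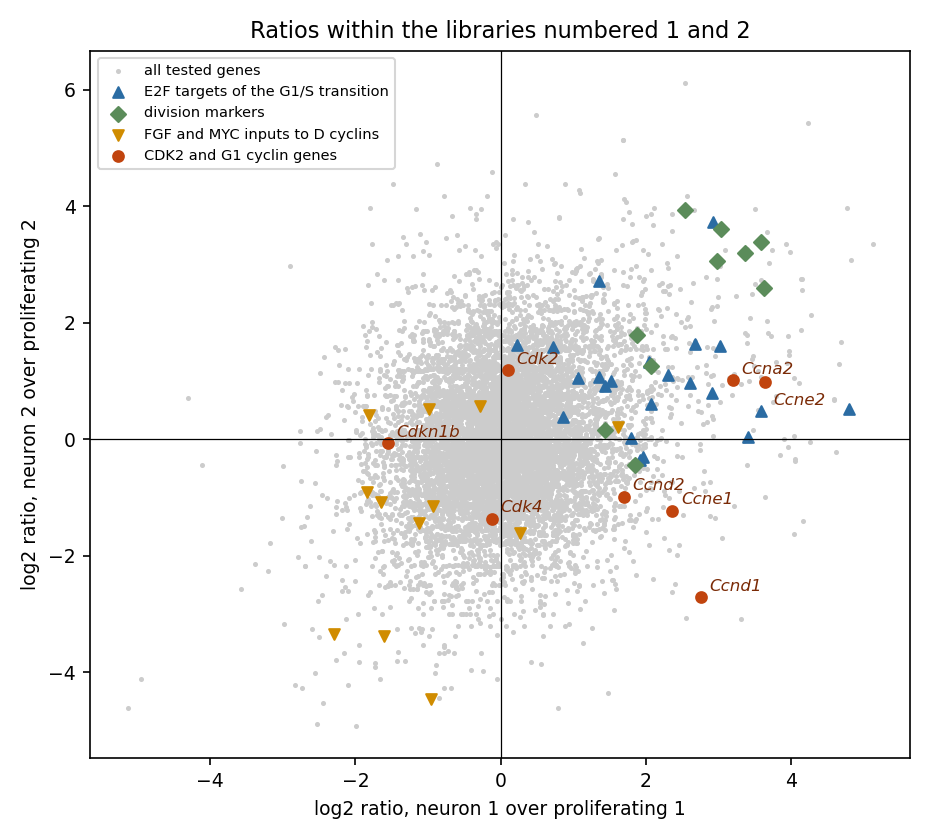
Log2 ratio of CPM (prior count 2), neuron over proliferating, in set 1 (x axis) and set 2 (y axis) for all tested genes in grey, 3 gene lists and the 8 tested genes of the CDK2 pathway, which are named. Ccnd1 lies in the lower right, higher in neuron in set 1 and lower in set 2, while most E2F targets and division markers lie in the upper right.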

How the data were processed

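RNA of 4 libraries was measured, 2 per group. Per the labels' protocols, total RNA was DNase-treated and depleted of ribosomal RNA, and stranded libraries were made. The submitters' processing notes name HISAT2, SAMtools, featureCounts, DESeq2 and mm10. Their settings are not given in the sources used here. The authors deposited raw counts per gene and RPKM values. The deposited RPKM used each library's whole count total, since 1 gene length fitted all libraries within a tolerance of 0.001 for 17709 of 17709 genes.

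Without the 7 rRNA or rRNA-like genes, counts were fitted with edgeR 4.0.16 (quasi-likelihood test, TMM scaling, filterByExpr) in R 4.3.3, with group alone or with group and library number. P-values were adjusted by Benjamini-Hochberg over the 9009 tested genes. Adjusted p-values printed as 1.00 are rounded from values just below it. Alternatives used DESeq2 1.42.0, limma 3.58.1 on log2(RPKM + 0.1) and log2(RPKM + 1), other scalings, no filter, and a GC correction (a spline per library on GENCODE M21 transcript GC, available for 98.0% of tested genes). Log2 CPM used a prior count of 2. Both fits and the correction were run on simulated data, with the same spread for every gene and planted changes only in well-counted genes. That does not show how they perform at the low counts and the spread between libraries seen here. Intervals are 95% exact binomial intervals, and they and the limits for 0 counts cover counting error alone.

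The 10 genes, the lists and the tests were chosen with earlier results of these data known. The rule for naming list genes took those called in either edgeR fit and the 2 with the highest mean level. Outside it, the text marks Nefh, Rbfox3, Aqp4, Rbl1 and Btg2 as chosen after their values were seen. Sox2, Pax2, Pax8, Ccnd3, Cdk5, Cdk5r1, Cdkn1c and the markers at 0 in every library were also named outside the rule. The labels tie no number to a shared culture or day. The libraries numbered alike were read as sets because their profiles correlate.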

Additional observations from a re-analysis of the deposited data

Results flagged for a closer look

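Ccnd1, Ccnd2 and Ccne1 were set apart because the neuron library was higher in one set and lower in the other. These are 3 of the 8 tested genes, while 44.6% of all tested genes had opposite signs, so the trait is not particular to them. The log2 ratios, neuron over proliferating, were 2.88 in set 1 and -2.75 in set 2 for Ccnd1, and 1.74 in set 1 and -0.99 in set 2 for Ccnd2. For Ccne1 they were 2.54 in set 1 and -1.33 in set 2, and the counting interval of the set 2 value includes 0. Proliferating 1 held 5 counts of Ccnd1, 12 of Ccnd2 and 3 of Ccne1. These differences between sets were not tested, since each set has 1 library per group.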

How the results depend on the processing

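No call of the 10 genes changed in the 141 alternative values that had an adjusted p (Cdk2, Ccne1, Ccne2, Cdkn1a and Cdk6 had none in DESeq2 with the block, and Cdkn1a and Cdk6 were not tested in most fits), but with 2 libraries per group this does not show that their values are stable. Of 146 alternative values of their log2 fold changes, 126 kept their direction and 20 turned (for Cdkn1a and Cdk6, relative to the fit without the count filter). With group alone 0 genes were called under every scaling, filter and tool and without each library in turn. With the replicate block 85 were called (56 higher, 29 lower), and with it 73 in DESeq2 (42 and 31), 43 without the count filter (34 and 9), 32 with DESeq2 size factors (23 and 9) and 13 with the GC correction (5 and 8). In limma on log2(RPKM + 0.1) and log2(RPKM + 1) the values turned positive for Cdkn1b (0.29 and 0.14), Cdk4 (0.39 and 0.33), Ccnd1 (1.11 and 0.72) and Ccnd2 (1.39 and 0.82). On those scales the median of all tested genes was 0.81 and 0.34. Ccnd2 also turned positive with the block, at 0.26, and with it at 0.18 with the GC correction, 0.25 with DESeq2 size factors, 0.34 without the filter and 0.28 in DESeq2. Leaving out each library in turn gave -0.82 to 2.67 for Cdk2, -0.77 to 1.89 for Ccne1, -2.09 to 0.34 for Cdk4, -1.90 to 2.40 for Ccnd1 and -1.04 to 1.84 for Ccnd2. Ccna2 kept its direction in all 17 alternatives, from 0.93 to 3.46, and Ccne2 from 0.54 to 8.48, the highest of which rests on a count of 0 in proliferating 1. The causes were not tested. The block fit could not be run without a library. Depth limits the levels of Cdk2, Ccne1, Ccne2, Cdkn1a and Cdk6 in set 2, at 0 to 20 counts, and of 8 of the 10 genes in proliferating 1, the shallowest library, at 0 to 12.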
